A study of Homo sapiens with 15 samples.

Results

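The genes described here are 10 that encode mTORC1, its partner complex mTORC2 and their regulators: the kinase MTOR, the complex subunits RPTOR, RICTOR and DEPTOR, the inhibitory pair TSC1 and TSC2, the effectors EIF4EBP1 and LARP1, and the stress-induced inhibitors DDIT4 and SESN2. They were chosen by symbol, with earlier results of these data known. All 10 were found among the 62754 Ensembl IDs of the count table and were among the 19781 genes tested. The libraries came from NCI-H69, an established line grown from a human small cell lung cancer of the classic type, and the study asked which transcripts respond to inhibition of FTO, the eraser of the m6A mark on RNA. Cells were treated with CS2, with FB23-2 or, as the control, with the solvent DMSO, with 3 libraries in each group that the series calls biological replicates. The series names both compounds as FTO inhibitors, and CS2 is the compound brequinar, which inhibits DHODH, a pyrimidine synthesis enzyme. No source used here gives the doses or the length of treatment, and the compounds were therefore compared by label alone, without knowing whether doses matched. A single cell line stands for all 3 groups, and 6 libraries of a second line, H82, were not analysed here.

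mTORC1 is a protein kinase complex that couples amino acids, growth factors and energy to protein synthesis. When active at the lysosome it phosphorylates 4E-BP1, the product of EIF4EBP1, which then releases the cap-binding factor eIF4E. The TSC complex switches off RHEB, the small GTPase that activates mTORC1, and stress raises inhibitors that act upstream: REDD1, the product of DDIT4, acts through TSC, and sestrin 2, the product of SESN2, acts through the amino acid sensing arm. All values below are of messenger RNA, and the activity of the kinase was not measured.

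Library totals were 29916267 to 33663742 counts (CS2), 32352835 to 43957839 (FB23-2) and 31404658 to 45022633 (DMSO). Levels are read counts scaled to library size (CPM) with TMM factors, and 3 counts corresponded to between 0.0666 and 0.101 CPM. FB23-2 replicate 2 stood apart from the other FB23-2 libraries (chi-square per degree of freedom of 50.1 and 48.1, against 4.21 to 14.1 for the other pairs within a group). Mitochondrial genes took 8.32%, 9.05% and 7.3% of counts with CS2, 6.83%, 11% and 6.91% with FB23-2, and 5.69%, 5.51% and 5.18% with DMSO, and leaving them out changed no call of a member. All 8 markers of small cell lung cancer were detected, with summed levels, relative to the library total, of 2721 to 2877 CPM with CS2, 2501 to 2643 CPM with FB23-2 and 3036 to 3263 CPM with DMSO. The 8 markers of other cell types summed to 1.75 to 2.24 CPM with CS2, 2.53 to 2.94 CPM with FB23-2 and 4.02 to 4.29 CPM with DMSO, and CD3E and COL3A1 had 0 counts in every library.

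Of the 10 genes, SESN2 had the largest fold change in each comparison. It rose with both compounds, 2.23-fold with CS2 and 6.03-fold with FB23-2. DDIT4 had the largest SE among the 10 genes and passed the test in no comparison. Their promoters are shown because genes known to induce them are described below. The 250 bases before each RefSeq start were taken from GRCh38.p14, on the plus strand, at chr10:72273674-72273923 for DDIT4 and chr1:28259268-28259517 for SESN2, and capitals mark the core letters of a hypoxia response element, ACGTG.
DDIT4 promoter: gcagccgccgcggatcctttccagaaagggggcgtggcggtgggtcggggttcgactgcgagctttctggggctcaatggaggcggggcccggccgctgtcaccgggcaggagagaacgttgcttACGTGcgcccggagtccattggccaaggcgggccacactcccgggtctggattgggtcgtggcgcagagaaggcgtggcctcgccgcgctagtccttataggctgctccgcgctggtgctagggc
SESN2 promoter: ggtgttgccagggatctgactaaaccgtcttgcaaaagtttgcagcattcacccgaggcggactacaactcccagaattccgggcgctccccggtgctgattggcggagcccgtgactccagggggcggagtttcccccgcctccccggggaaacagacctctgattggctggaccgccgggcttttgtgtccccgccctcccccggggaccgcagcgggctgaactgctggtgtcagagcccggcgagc
The match in DDIT4 begins 125 bases before the start, and ACGTG was the only form of this core searched. ACGTG, searched on both strands, is in 18.5% of 35116 RefSeq promoters of this length, and besides DDIT4 it is in those of RICTOR and TSC2. The other letters searched were TGATGNAA (CCAAT/enhancer and ATF response element core, 3.14% of promoters), TGACNNNGC (antioxidant response element core, 10.9%) and TGACGTCA (cAMP response element, 1.65%). TGATGNAA and TGACNNNGC were both in the promoter of TSC2, and TGACGTCA in none of the 8 members with a promoter entry. None of the 4 motifs was found in the SESN2 window, which says only that these letters are not in these bases.

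SESN2 (ENSG00000130766, chromosome 1, 28259527 to 28282491, plus strand, GRCh38) encodes sestrin 2, a leucine-binding protein that holds back mTORC1 through the GATOR complexes. It had 18.0, 18.4 and 17.3 CPM in CS2 libraries, 43.9, 48.0 and 53.0 CPM in FB23-2 libraries, and 10.3, 6.46 and 7.19 CPM in DMSO libraries. The 3 groups did not overlap: every FB23-2 library lay above every CS2 library, and every CS2 library above every DMSO library. The log2 fold change was 1.16 ± 0.14 (SE) with CS2 (adjusted p = 8.92e-07, quasi-likelihood test of edgeR, Benjamini-Hochberg adjustment over all genes) and 2.59 ± 0.14 with FB23-2 (adjusted p = 1.09e-11). The difference between the compounds was itself tested and came to 1.43 ± 0.13, or 2.70-fold higher with FB23-2 (adjusted p = 1.38e-08). All 3 calls held under each of the 19 alternative settings and omitted libraries.

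DDIT4 (ENSG00000168209, chromosome 10, 72273920 to 72276036, plus strand) encodes REDD1, which is induced by hypoxia, glucocorticoids and endoplasmic reticulum stress. It had 109, 101 and 101 CPM in CS2 libraries, 158, 91.0 and 145 CPM in FB23-2 libraries, and 118, 50.3 and 62.0 CPM in DMSO libraries. DMSO replicate 1 was higher than all 3 CS2 libraries, and FB23-2 replicate 2 was lower than all of them, so the groups overlapped. The log2 fold change was 0.44 with CS2 (95% interval -0.42 to 1.29, adjusted p = 0.353) and 0.77 with FB23-2 (-0.08 to 1.63, adjusted p = 0.114), and neither passed. Without DMSO replicate 1 both passed, at 0.89 with CS2 (adjusted p = 0.00291) and 1.22 with FB23-2 (adjusted p = 0.000338). The FB23-2 difference also passed with limma voom (0.82, adjusted p = 0.00466). DDIT4 shares 41.2% of its exon bases with the antisense gene DDIT4-AS1 on the other strand. The strand setting of the counting is not given, so it is not known whether reads of the 2 genes were kept apart.

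The list of stress and nutrient inhibitors had 7 genes tested, DDIT4 and SESN2 included. A call here is an adjusted p under 0.05, and many genes passed it: of all genes tested, 24.3% were called higher and 25.3% lower with CS2, 25.4% and 26.7% with FB23-2, and 29.7% and 30% for FB23-2 against CS2. In the list, CS2 gave 4 calls higher and 0 lower, FB23-2 gave 5 higher and 1 lower, and FB23-2 against CS2 gave 4 higher and 1 lower. With the replicate block, or without CS2 replicate 1, 1 gene was called lower with CS2. TRIB3, a pseudokinase of the stress response that restrains AKT, had 10.4, 7.28 and 9.78 CPM with CS2, 162, 177 and 160 CPM with FB23-2, and 5.53, 4.26 and 5.68 CPM with DMSO. It rose 1.77-fold with CS2 (adjusted p = 3.56e-05) and 32-fold with FB23-2 (adjusted p = 1.46e-15), and the FB23-2 level was 18.1-fold above that with CS2 (adjusted p = 1.87e-14). SESN3, another sestrin, averaged 246 ± 23 CPM with CS2, 328 ± 26 CPM with FB23-2 and 157 ± 2.8 CPM with DMSO (SD, n = 3 each). Its log2 fold change was 0.65 with CS2 (adjusted p = 1.6e-06) and 1.06 with FB23-2 (adjusted p = 2.03e-09), and SESN1 rose by 0.39 with CS2 (adjusted p = 0.000916) and by 0.41 with FB23-2 (adjusted p = 0.000483). CASTOR2, of the family of the arginine sensor CASTOR1, fell by 0.75 with FB23-2 (adjusted p = 1.64e-06). DDIT4L and CASTOR1 had too few reads to be tested.

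Of 6 genes known to induce DDIT4 or SESN2, CS2 gave 1 call higher and 1 lower, where 49.7% of all genes were called in either direction. FB23-2 gave 4 higher and 0 lower, where 25.4% of all genes were called higher, and 4 were higher with FB23-2 than with CS2, where 29.7% were. ATF4, the central transcription factor of the integrated stress response, had 235, 215 and 236 CPM with CS2, 809, 920 and 833 CPM with FB23-2, and 374, 318 and 322 CPM with DMSO. All CS2 libraries were below all DMSO libraries and all FB23-2 libraries above them. ATF4 thus fell by 0.56 on the log2 scale with CS2 (adjusted p = 8.17e-06) and rose by 1.34 with FB23-2 (adjusted p = 6.88e-11). DDIT3, which encodes the stress factor CHOP, rose with both, by 0.90 with CS2 (adjusted p = 3.46e-07) and by 2.52 with FB23-2 (adjusted p = 2.32e-13). CEBPB, a CCAAT/enhancer binding protein, rose by 1.59 with FB23-2 (adjusted p = 3.04e-08). SESN2 was thus higher with CS2 in libraries where ATF4 mRNA was lower. ATF4 protein was not measured, and the part of any inducer in the SESN2 change was not tested.

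**Figure D1:**
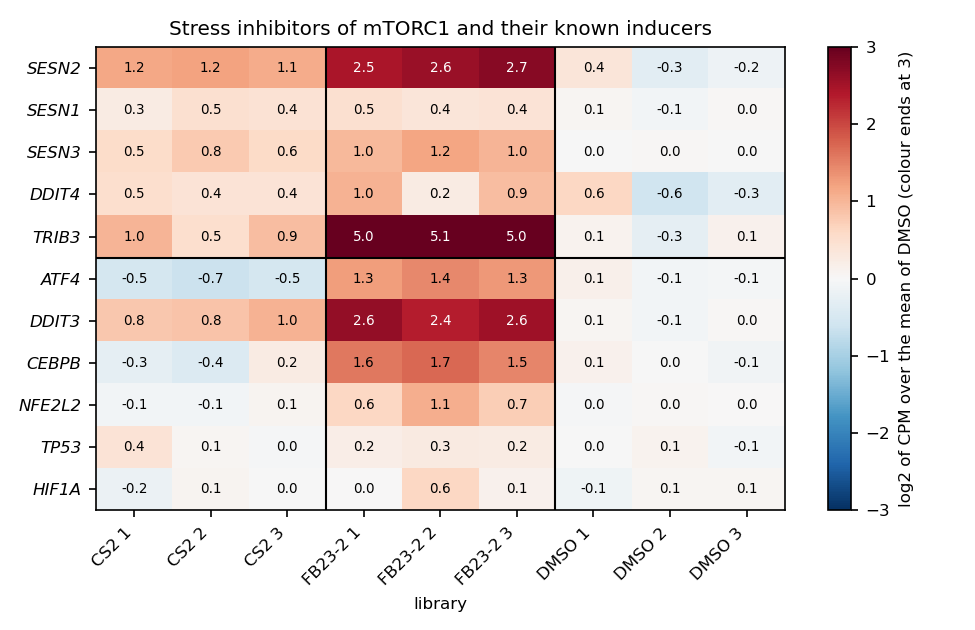
The heat map gives the log2 of the CPM of each gene in each library over its mean in DMSO (red higher, blue lower, colours ending at 3), with 5 stress inhibitors above the line and 6 inducers below it. SESN2 and TRIB3 are red in all CS2 and FB23-2 libraries, while ATF4 is blue in all 3 CS2 libraries and red in all 3 FB23-2 libraries.

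Across all 10 genes, CS2 gave 6 calls, 2 higher and 4 lower, where 49.7% of all genes tested were called (24.3% higher, 25.3% lower). FB23-2 gave 5 calls, 4 higher and 1 lower, where 52% of all genes were called (25.4% higher, 26.7% lower). Between the compounds, 7 genes were called, and all of these were higher with FB23-2, where 59.6% of all genes were called (29.7% higher, 30% lower). This comparison varied with gene span, and MTOR, RPTOR, RICTOR, DEPTOR and LARP1 each span over 100 kb. Of protein-coding genes of 100 to 200 kb, 48.2% were higher and 19.7% lower, and of those of 200 to 500 kb 61.3% and 12.2%. Of those of 10 to 50 kb, 24.2% were higher and 37.9% lower. With the span correction described below, 6 members were called higher and 1 lower between the compounds. For CS2 against DMSO the same correction gave 2 higher and 2 lower. The libraries of the groups did not overlap for 6 members with CS2 against DMSO, 6 with FB23-2 against DMSO and 7 between the compounds, where 60.6%, 59.8% and 62.9% of all genes did not overlap. The shares of members called in either direction, and of members without overlap, are thus near those of all genes in all 3 comparisons. The median log2 fold change of the members was -0.19 for CS2 against DMSO, 0.29 for FB23-2 against DMSO and 0.55 for FB23-2 against CS2, beside medians within 0.01 of 0 for all genes. The comparisons with DMSO share the DMSO libraries, and those with CS2 share the CS2 libraries. Without DMSO replicate 3 the CS2 count fell to 3 members, SESN2 higher and RPTOR and LARP1 lower. Without FB23-2 replicate 2, the library that stood apart, the FB23-2 changes were 2.60 for SESN2, 0.83 for EIF4EBP1, 0.72 for DEPTOR, 0.27 for RICTOR (adjusted p = 0.0258) and -0.34 for RPTOR, all still called, and 7 members were called between the compounds.

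**Figure D2:**
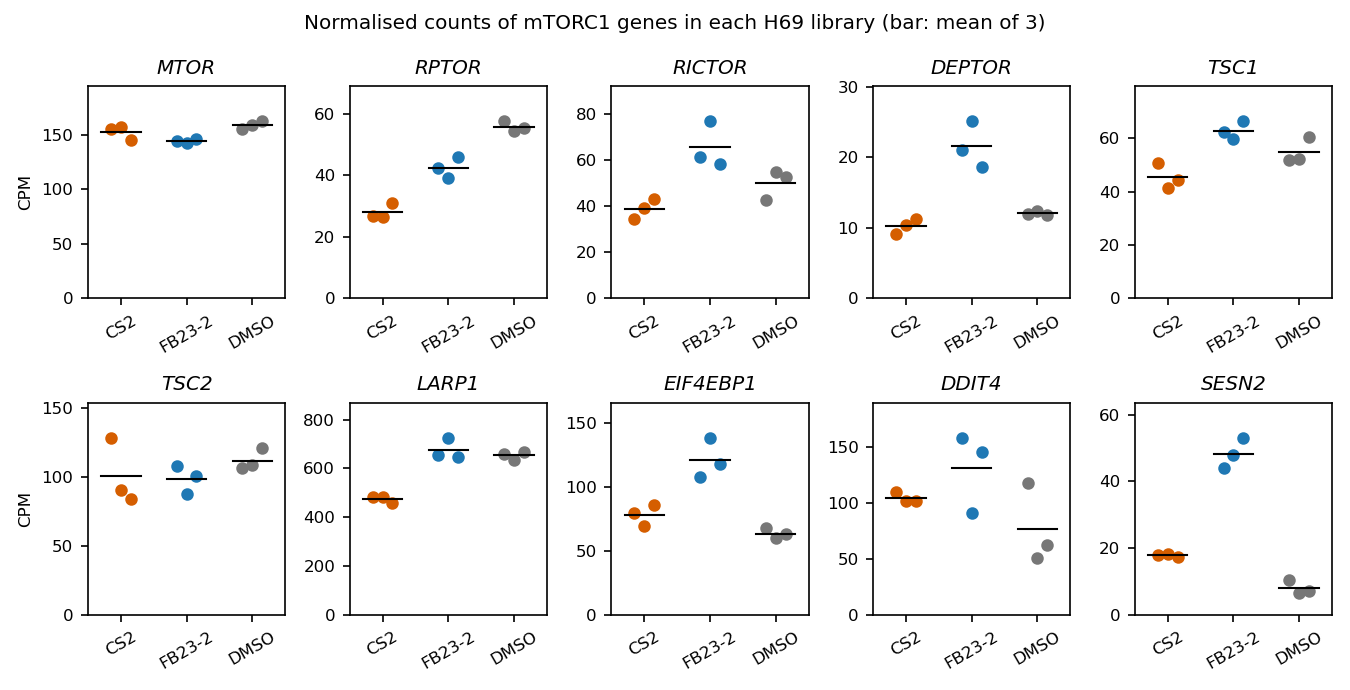
Each point is the CPM of a gene in 1 library and each bar the mean of 3, for CS2, FB23-2 and DMSO. SESN2 and EIF4EBP1 are higher in all libraries of both compounds than in DMSO, RPTOR is lower in all of them, and MTOR lies between 143 and 162 CPM throughout.

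MTOR (chromosome 1, 11106535 to 11262507, minus strand), the catalytic subunit of both complexes, passed the test in no comparison. It had 156, 157 and 145 CPM in CS2 libraries, 144, 143 and 147 CPM in FB23-2 libraries, and 155, 159 and 162 CPM in DMSO libraries. The CS2 libraries overlapped those of DMSO, and the FB23-2 libraries lay just below them. Its log2 fold change was -0.06 with CS2 (95% interval -0.20 to 0.09, adjusted p = 0.508) and -0.14 with FB23-2 (-0.28 to 0.01, adjusted p = 0.106). With the correction for gene span described below, the CS2 difference was 0.21 (adjusted p = 0.0187).

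RPTOR encodes raptor, the scaffold that defines mTORC1 and brings it its substrates, and it fell with both compounds. It had 26.8, 26.4 and 31.1 CPM with CS2, 42.3, 39.3 and 45.9 CPM with FB23-2, and 57.6, 54.6 and 55.6 CPM with DMSO. No library of any group lay within the range of another, with CS2 lowest and DMSO highest. RPTOR was 1.99-fold lower with CS2 (log2 fold change -0.99 ± 0.09, adjusted p = 4.18e-08) and 1.32-fold lower with FB23-2 (-0.40 ± 0.09, adjusted p = 0.00119). It was 1.51-fold higher with FB23-2 than with CS2 (adjusted p = 1.8e-05). RPTOR spans 421.6 kb on chromosome 17 (80544819 to 80966371, plus strand), and long genes as a class were lower with CS2: of 962 protein-coding genes spanning 200 to 500 kb, 64.9% fell and 5.09% rose, and their median was -0.57. With a correction for the trend with gene span, RPTOR differed by -0.16 with CS2 (adjusted p = 0.175), by -0.23 with FB23-2 (adjusted p = 0.047) and by -0.0694 between the compounds (adjusted p = 0.56).

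RICTOR (chromosome 5, 38937919 to 39074408, minus strand) encodes the scaffold of mTORC2, which phosphorylates AKT, and it went opposite ways with the compounds. It had 34.7, 39.4 and 43.1 CPM in CS2 libraries, 61.7, 77.0 and 58.7 CPM in FB23-2 libraries, and 42.7, 54.9 and 52.7 CPM in DMSO libraries. All FB23-2 libraries were above all DMSO libraries, while CS2 replicate 3 lay above DMSO replicate 1. The log2 fold change was -0.36 ± 0.12 with CS2 (adjusted p = 0.0144) and 0.39 ± 0.11 with FB23-2 (adjusted p = 0.00693), and the difference between the compounds was 0.75 ± 0.12 (adjusted p = 1.36e-05). Leaving out DMSO replicate 2 (adjusted p = 0.0834), DMSO replicate 3 (0.0619) or CS2 replicate 1 (0.0856) ended the CS2 call, as did the span correction (-0.15, adjusted p = 0.249). Leaving out DMSO replicate 1 ended the FB23-2 call (0.29, adjusted p = 0.0608).

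DEPTOR, which spans 177.2 kb on chromosome 8, encodes a subunit of both complexes that inhibits the kinase, and it rose with FB23-2. It had 9.08, 10.4 and 11.3 CPM with CS2, 21.0, 25.1 and 18.7 CPM with FB23-2, and 12.0, 12.4 and 11.8 CPM with DMSO. Every FB23-2 library was above all the others, and the CS2 libraries were below those of DMSO by a small margin. DEPTOR rose by 0.84 ± 0.12 on the log2 scale with FB23-2, or 1.79-fold (adjusted p = 1.03e-05), and differed by -0.23 ± 0.13 with CS2 (95% interval -0.50 to 0.03, adjusted p = 0.134). FB23-2 was 2.11-fold above CS2 (adjusted p = 4e-07). Exons of an unnamed long noncoding gene on the other strand overlap 9.61% of its exon bases.

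The read counts of the scaffolds relative to each other, chosen for description after their values were seen, moved with treatment. There were 1.29, 1.49 and 1.39 RICTOR reads per RPTOR read with CS2, 1.46, 1.96 and 1.28 with FB23-2, and 0.741, 1.01 and 0.947 with DMSO. Every library of either compound was above every DMSO library. RPTOR reads per MTOR read were 0.173, 0.168 and 0.215 with CS2, 0.294, 0.275 and 0.313 with FB23-2, and 0.371, 0.343 and 0.342 with DMSO, which is the same order as the RPTOR levels. These ratios are not per length and do not give the proportions of the proteins. They are also not corrected for gene span, and RPTOR spans 421.6 kb against 136.5 kb for RICTOR. With the span correction the log2 fold changes with CS2 were alike, at -0.16 for RPTOR and -0.15 for RICTOR. The cause of that shift was not tested.

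**Figure D3:**
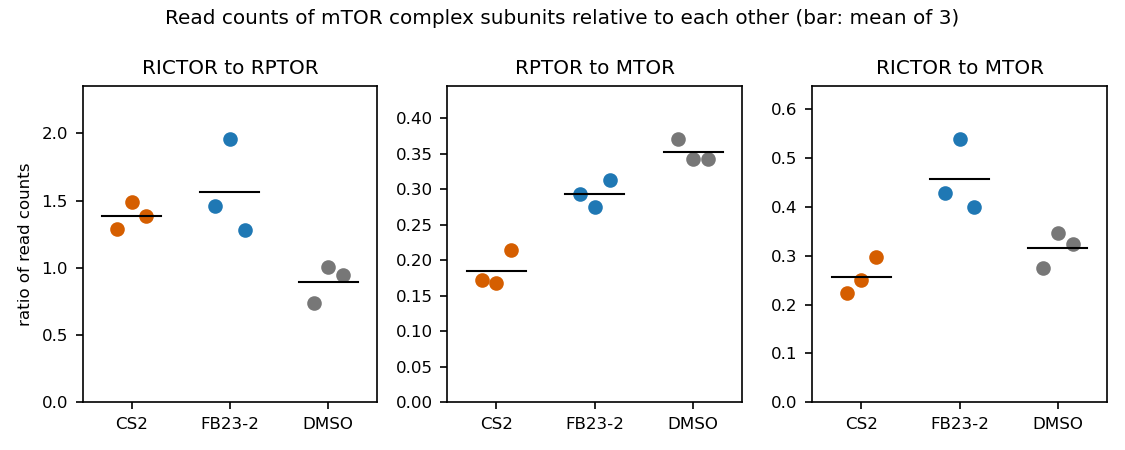
Points are ratios of read counts in each library and bars the means of 3, for RICTOR to RPTOR, RPTOR to MTOR and RICTOR to MTOR. The first ratio is at or above 1.28 with either compound and at or below 1.01 with DMSO, and the second is lowest with CS2. The ratios are not corrected for gene span.

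The list of mTOR complex genes has 12 genes, MTOR, RPTOR, RICTOR and DEPTOR included. In it, CS2 gave 2 calls higher and 7 lower, where 24.3% of all genes were higher and 25.3% lower. FB23-2 gave 3 higher and 4 lower, where 25.4% of all genes were higher and 26.7% lower. FB23-2 against CS2 gave 7 higher and 4 lower, where 29.7% of all genes were higher and 30% lower. The median log2 fold change was -0.37 for CS2 against DMSO, -0.04 for FB23-2 against DMSO and 0.43 for FB23-2 against CS2. MLST8, a subunit of both complexes, fell by 0.80 with CS2 (adjusted p = 1.47e-06), and MAPKAP1, the mTORC2 subunit SIN1, fell by 0.65 with CS2 (adjusted p = 7.65e-07) and by 0.33 with FB23-2 (adjusted p = 0.000984). AKT1S1, which encodes the mTORC1 inhibitor PRAS40, fell by 0.64 with CS2 (adjusted p = 5.91e-06) and by 0.99 with FB23-2 (adjusted p = 2.06e-08). TELO2, a chaperone of the kinase family, rose by 0.50 with CS2 (adjusted p = 0.00512) and fell by 0.34 with FB23-2 (adjusted p = 0.0392). It was 1.79-fold lower with FB23-2 than with CS2 (adjusted p = 4.69e-05). Its call for FB23-2 against DMSO was lost with unscaled library size, and when any DMSO library or FB23-2 replicate 2 was left out. With the span correction 3 of the 12 were lower with CS2, and MAPKAP1 was no longer called with CS2 (-0.08, adjusted p = 0.383). Without DMSO replicate 1 the list had 1 call higher with FB23-2.

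TSC1 (chromosome 9, 132891348 to 132946874, minus strand) and TSC2 (chromosome 16, 2047465 to 2089487, plus strand) encode hamartin and tuberin, the partners that restrain RHEB. TSC1 had 50.7, 41.3 and 44.4 CPM in CS2 libraries, 62.3, 59.5 and 66.3 CPM in FB23-2 libraries, and 51.7, 52.1 and 60.3 CPM in DMSO libraries. CS2 libraries were all lower than those of DMSO, but CS2 replicate 1 only just, and FB23-2 replicate 2 lay below DMSO replicate 3. TSC1 fell by 0.27 ± 0.09 with CS2 (adjusted p = 0.024), did not pass with FB23-2 (0.20 ± 0.09, adjusted p = 0.0884) and was 1.38-fold higher with FB23-2 than with CS2 (adjusted p = 0.000307). Leaving out DMSO replicate 3 (adjusted p = 0.166), CS2 replicate 2 (0.141) or CS2 replicate 3 (0.0783) ended the CS2 call. Against DMSO, FB23-2 passed without DMSO replicate 3 (0.27, adjusted p = 0.0488) or FB23-2 replicate 2 (0.23, adjusted p = 0.0315).

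TSC2 had 128, 90.3 and 83.9 CPM with CS2, 108, 87.2 and 101 CPM with FB23-2, and 106, 108 and 121 CPM with DMSO. The groups overlapped, with CS2 replicate 1 the highest library of all and the other CS2 libraries below every DMSO library. On the log2 scale the difference was -0.15 with CS2 (95% interval -0.42 to 0.13, adjusted p = 0.365) and -0.18 with FB23-2 (-0.46 to 0.10, adjusted p = 0.261). Without CS2 replicate 1 the CS2 difference was -0.35 (adjusted p = 0.00671). Exons of NTHL1 and PKD1 overlap 6.01% of the exon bases of TSC2.

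The list of the TSC complex and RHEB has 5 genes, of which CS2 gave 1 higher and 2 lower, FB23-2 gave 2 higher and 0 lower, and FB23-2 against CS2 gave 3 higher and 0 lower. The totals of 3, 2 and 3 of 5 stand beside 49.7%, 52% and 59.6% of all genes. TBC1D7, the third subunit of the complex, had 14.7, 12.1 and 16.0 CPM with CS2, 32.8, 31.7 and 38.1 CPM with FB23-2, and 43.0, 37.5 and 37.8 CPM with DMSO. It was 2.76-fold lower with CS2 (adjusted p = 2.88e-09) and 2.40-fold higher with FB23-2 than with CS2 (adjusted p = 1.26e-08). RHEB itself rose by 0.37 with FB23-2 (adjusted p = 0.001), and RHEBL1, its close relative, rose by 0.82 with CS2 (adjusted p = 0.004) and by 1.32 with FB23-2 (adjusted p = 3.58e-05). The CS2 count higher in this list was 2 under 6 of the 19 alternatives: scaling by library size alone, the fit of 2 groups, the replicate block, and without DMSO replicate 1, CS2 replicate 1 or FB23-2 replicate 2. The CS2 count lower was 1 without CS2 replicate 2, CS2 replicate 3 or DMSO replicate 3.

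EIF4EBP1, on chromosome 8, encodes 4E-BP1, the translation repressor that mTORC1 inactivates, and it rose with both compounds. It had 79.4, 69.5 and 86.0 CPM in CS2 libraries, 108, 138 and 118 CPM in FB23-2 libraries, and 67.9, 59.8 and 62.8 CPM in DMSO libraries. The groups did not overlap, although CS2 replicate 2 was close to DMSO replicate 1. The log2 fold change was 0.30 ± 0.10 with CS2 (adjusted p = 0.0151) and 0.93 ± 0.10 with FB23-2, or 1.91-fold (adjusted p = 1.72e-07), and FB23-2 was 1.55-fold above CS2 (adjusted p = 1.48e-05). Leaving out DMSO replicate 2 (adjusted p = 0.078), DMSO replicate 3 (0.0519) or CS2 replicate 3 (0.0842) ended the CS2 call, as did the span correction (0.18, adjusted p = 0.126).

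LARP1 (chromosome 5, 154712902 to 154817607, plus strand) encodes an RNA-binding protein that holds terminal oligopyrimidine (TOP) mRNAs, those of ribosomal proteins and translation factors, when mTORC1 is inactive. It had 483, 482 and 459 CPM with CS2, 656, 725 and 649 CPM with FB23-2, and 658, 636 and 667 CPM with DMSO. The CS2 libraries were all below the DMSO libraries, and the FB23-2 libraries overlapped them. LARP1 was 1.38-fold lower with CS2 (log2 fold change -0.46 ± 0.07, adjusted p = 1.67e-05) and did not pass with FB23-2 (0.05, 95% interval -0.10 to 0.19, adjusted p = 0.569). It was 1.43-fold higher with FB23-2 than with CS2 (adjusted p = 3.06e-06). In these bulk libraries, fewer cells with a transcript and less of it per cell cannot be told apart.

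**Figure D4:**
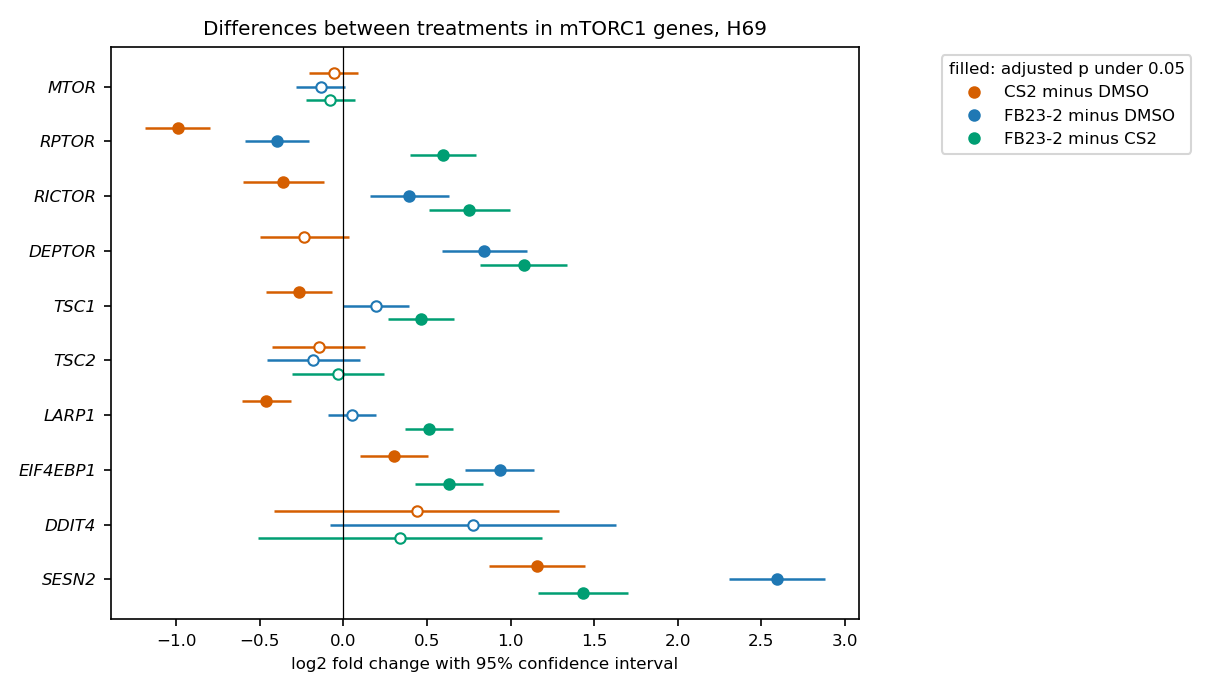
Log2 fold changes (points) with 95% confidence intervals for each gene in the 3 comparisons, filled where the adjusted p is under 0.05. SESN2 lies at 1.16, 2.59 and 1.43, the 7 filled points between the compounds are all above 0, and the intervals of DDIT4 are the widest.

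Of the TOP mRNAs of translation factors, 11 were tested, and the compounds differed. This list, like the others, was chosen with earlier results of these data known, so its counts are a description and no test of enrichment. CS2 gave 0 higher and 10 lower (median log2 fold change -0.54), where 25.3% of all genes were lower. FB23-2 gave 8 higher and 0 lower (median 0.33), where 25.4% were higher, and FB23-2 against CS2 gave 10 higher and 0 lower (median 0.99), where 29.7% were higher. EEF1A1, the elongation factor that carries aminoacyl-tRNA, had 2083, 2029 and 2560 CPM with CS2, 6450, 6309 and 6219 CPM with FB23-2, and 6783, 6678 and 6536 CPM with DMSO, and was 3.00-fold lower with CS2 (adjusted p = 1.35e-11). PABPC1, the poly(A)-binding protein, fell by 0.75 with CS2 (adjusted p = 0.000154) and rose by 0.95 with FB23-2 (adjusted p = 1.62e-05). TPT1 rose by 0.88 (adjusted p = 4.94e-07) and NAP1L1 by 0.57 (adjusted p = 6.06e-05) with FB23-2, and with CS2 they fell by 0.35 (adjusted p = 0.00626) and 0.54 (adjusted p = 0.000105). The CS2 call of TPT1 was lost without CS2 replicate 1 (-0.24, adjusted p = 0.0524). Several of these genes, EEF1A1 among them, have near-identical processed copies in the genome, so their counts are uncertain, and EEF1G was listed at 0 in all 9 libraries.

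The list of translation effectors has 12 genes, of which CS2 gave 4 higher and 4 lower, FB23-2 gave 4 higher and 3 lower, and FB23-2 against CS2 gave 5 higher and 2 lower. The totals of 8, 7 and 7 of 12 stand beside 49.7%, 52% and 59.6% of all genes. EIF4B, a helper of the cap-binding complex and a target of S6 kinase, had 222, 230 and 241 CPM with CS2, 538, 632 and 528 CPM with FB23-2, and 423, 430 and 414 CPM with DMSO. It fell by 0.87 with CS2 (adjusted p = 1.75e-08) and rose by 0.42 with FB23-2 (adjusted p = 0.000114). EEF2K, the kinase that slows elongation, rose by 0.25 with CS2 (adjusted p = 0.0228) and by 1.00 with FB23-2 (adjusted p = 1.56e-08), and its CS2 call was lost without CS2 replicate 1, CS2 replicate 2, DMSO replicate 2 or DMSO replicate 3 (adjusted p from 0.0542 to 0.117). EIF4G1, the scaffold of the cap-binding complex, fell by 0.26 with CS2 (adjusted p = 0.00353) and by 0.51 with FB23-2 (adjusted p = 4.49e-06). LARP1B fell by 0.52 with CS2 (adjusted p = 0.000465) and differed by 0.21 with FB23-2 (adjusted p = 0.105). PDCD4, an inhibitor of the helicase eIF4A, rose by 0.32 with CS2 (adjusted p = 0.00574) and by 0.35 with FB23-2 (adjusted p = 0.00298), and its CS2 call was lost with the span correction (0.20, adjusted p = 0.0671). The CS2 count higher was 2 with the span correction, and also when DMSO replicate 2, DMSO replicate 3 or CS2 replicate 2 was left out, and the count lower between the compounds was 0 with the span correction.

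Of 13 genes of the Rag GTPases, Ragulator and folliculin, which carry amino acid signals to mTORC1, CS2 gave 4 higher and 2 lower, FB23-2 gave 4 higher and 3 lower, and FB23-2 against CS2 gave 3 higher and 6 lower. The totals of 6, 7 and 9 of 13 are near the shares of all genes called (49.7%, 52% and 59.6%). FLCN, which encodes folliculin, rose 2.02-fold with CS2 (adjusted p = 0.000818). RRAGA, a Rag GTPase, rose 1.48-fold with CS2 (adjusted p = 1.77e-05). SLC38A9, the lysosomal arginine sensor, rose by 0.77 with FB23-2 (adjusted p = 1.02e-05), and LAMTOR1, the Ragulator anchor, fell by 0.72 (adjusted p = 6.11e-06). FNIP1, the partner of folliculin, averaged 37.7 ± 1.9 CPM with CS2, 84.3 ± 13 CPM with FB23-2 and 52.8 ± 4.3 CPM with DMSO (SD, n = 3 each), and was called lower with CS2 (adjusted p = 0.000672) and higher with FB23-2 (adjusted p = 1.59e-05). The CS2 call of FNIP1 was lost with the span correction (-0.22, adjusted p = 0.0549), and the CS2 count higher in this list was 2 when DMSO replicate 2, DMSO replicate 3 or CS2 replicate 3 was left out. The count higher between the compounds was 5 with the span correction.

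Of 12 GATOR and KICSTOR genes, which relay the sestrin and CASTOR signals, CS2 gave 2 higher and 5 lower, FB23-2 gave 4 higher and 2 lower, and FB23-2 against CS2 gave 3 higher and 1 lower, beside 49.7%, 52% and 59.6% of all genes called in either direction. KICS2, a KICSTOR subunit, had 8.73, 9.56 and 10.3 CPM with CS2, 38.7, 48.7 and 32.0 CPM with FB23-2, and 24.4, 24.4 and 24.0 CPM with DMSO. It was 2.55-fold lower with CS2 (adjusted p = 5.97e-08), 1.64-fold higher with FB23-2 (adjusted p = 6.58e-05) and 4.18-fold higher with FB23-2 than with CS2 (adjusted p = 9.69e-11). KPTN, another subunit, fell with both compounds, by 0.69 with CS2 (adjusted p = 0.0033) and by 0.71 with FB23-2 (adjusted p = 0.00215). The count lower was 1 with FB23-2 under 8 of the 19 alternatives and 0 between the compounds under 11 of them, with no filter on low counts in both cases.

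Of 14 genes of PI3K and AKT input tested, CS2 gave 3 higher and 6 lower, FB23-2 gave 3 higher and 2 lower, and FB23-2 against CS2 gave 6 higher and 3 lower. The totals of 9, 5 and 9 of 14 stand beside 49.7%, 52% and 59.6% of all genes. PIK3R1, the regulatory subunit of PI3K, averaged 129 ± 11 CPM with CS2, 136 ± 12 CPM with FB23-2 and 252 ± 12 CPM with DMSO (SD, n = 3 each), and fell with CS2 (adjusted p = 1.45e-08) and with FB23-2 (adjusted p = 3.88e-08). AKT1 fell by 0.27 with CS2 (adjusted p = 0.00532) and by 0.79 with FB23-2 (adjusted p = 4.96e-08). IRS2, an adaptor of the insulin receptor, rose by 0.45 with CS2 (adjusted p = 0.000527) and by 1.08 with FB23-2 (adjusted p = 1.42e-08). SGK1, a kinase downstream of mTORC2, rose 2.18-fold with CS2 (adjusted p = 2.25e-06) and 1.44-fold with FB23-2 (adjusted p = 0.00431). Of 9 AMPK and LKB1 genes, CS2 gave 1 higher and 2 lower and FB23-2 gave 3 higher and 2 lower, with 4 higher and 1 lower between the compounds. These totals of 3, 5 and 5 of 9 stand beside the same shares of all genes. PRKAA1, a catalytic subunit of AMPK, rose by 0.54 with FB23-2 (adjusted p = 0.000134), and STK11, which encodes LKB1, rose by 0.42 with CS2 (adjusted p = 0.000727). PRKAG2 fell by 0.44 with CS2 (adjusted p = 0.000793) and by 0.54 with FB23-2 (adjusted p = 0.000106), and the CS2 direction turned with the span correction (0.23, adjusted p = 0.0373). The CS2 count lower in this list was 1 under 9 of the 19 alternatives, and the CS2 count higher was 2 under 3 of them.

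Of 7 autophagy and lysosome targets of mTORC1 tested, CS2 gave 2 higher and 1 lower, FB23-2 gave 1 higher and 2 lower, and FB23-2 against CS2 gave 2 higher and 3 lower, beside 49.7%, 52% and 59.6% of all genes called in either direction. ULK1, the kinase that starts autophagy, rose by 0.42 with CS2 (adjusted p = 0.000988), while its relative ULK2 fell by 0.43 with CS2 (adjusted p = 0.000145). TFE3, a transcription factor of lysosomal genes, rose by 0.41 with CS2 (adjusted p = 0.00113), and its relative TFEB fell by 0.59 with FB23-2 (adjusted p = 1.41e-05). The FB23-2 count higher was 2 under 11 of the 19 alternatives, RLE factors, DESeq2 and limma voom among them, and the CS2 count lower was 2 under 3 of them. Over all 11 lists without the 10 members, 98 genes were tested. With CS2 22 were higher and 36 lower (median -0.13), where 24.3% and 25.3% of all genes were. With FB23-2 37 were higher and 18 lower (median 0.18), where 25.4% and 26.7% of all genes were. Between the compounds 44 were higher and 21 lower (median 0.22), where 29.7% and 30% of all genes were. The totals over these 98 genes were not recomputed with the span correction. Calls with CS2 and between the compounds varied with gene span, as given above.

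**Figure D5:**
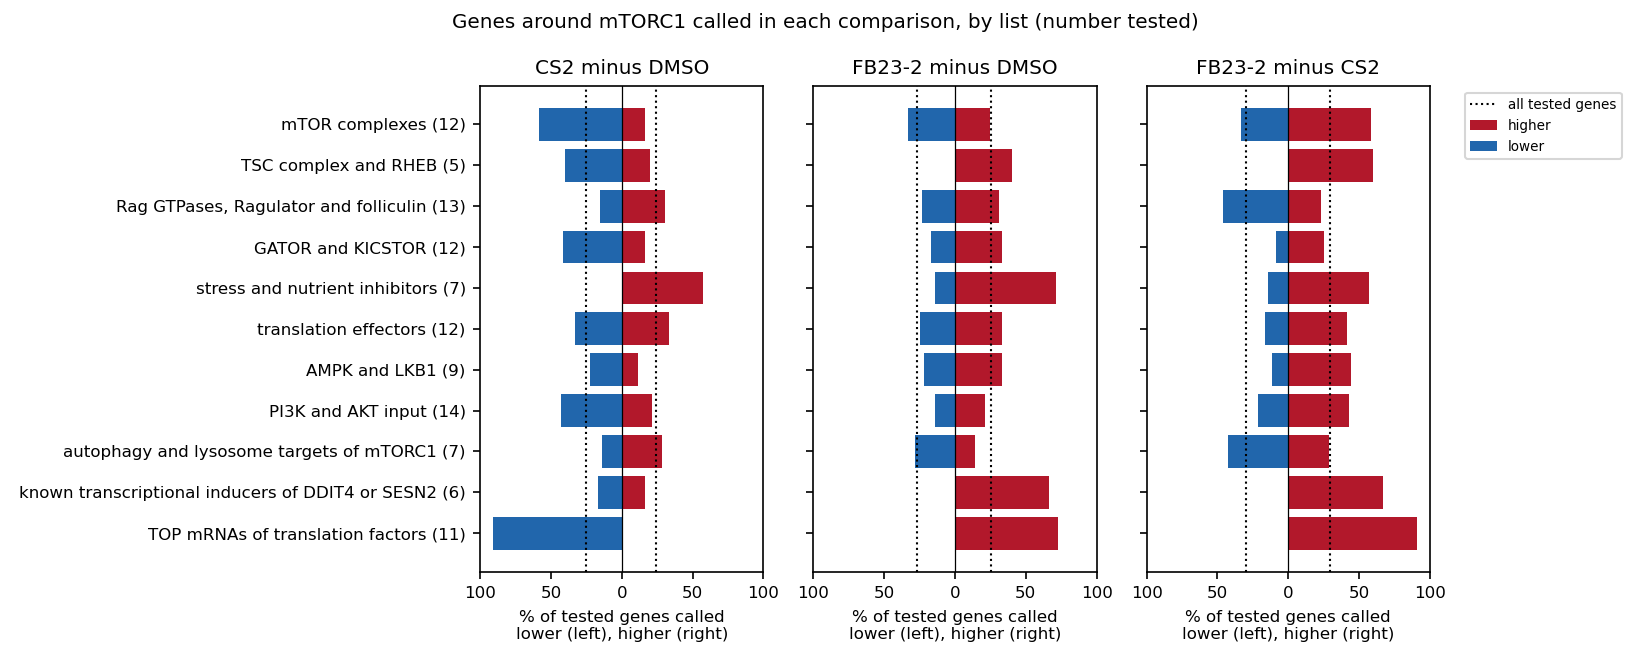
Bars give the percentage of the tested genes of each list called lower (left) or higher (right) in each comparison, and dotted lines the percentage over all tested genes. The TOP mRNAs reach 10 of 11 lower with CS2 and 10 of 11 higher between the compounds. The lists were chosen with earlier results of these data known.

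Levels were compared between genes as CPM per kb of the main transcript. With CS2 the order was EIF4EBP1 (76.7 ± 8.2 CPM per kb, SD, n = 3), LARP1 (72.0 ± 2.1), DDIT4 (59.5 ± 2.7), MTOR (17.6), TSC2 (16.3), TSC1 (5.28), SESN2 (5.18), RPTOR (4.39), RICTOR (4.09) and DEPTOR (3.99). With FB23-2 it was EIF4EBP1 (119 ± 15), LARP1 (103 ± 6.4), DDIT4 (75.1 ± 20), MTOR (16.7), TSC2 (16.0), SESN2 (14.0), DEPTOR (8.41), TSC1 (7.28), RICTOR (6.89) and RPTOR (6.63). With DMSO it was LARP1 (99.1 ± 2.5), EIF4EBP1 (62.3 ± 4.0), DDIT4 (43.9 ± 21), MTOR (18.3), TSC2 (18.1), RPTOR (8.73), TSC1 (6.35), RICTOR (5.25), DEPTOR (4.70) and SESN2 (2.31). SESN2 was thus the lowest of the 10 with DMSO, and its libraries there were below all those of DEPTOR. Neighbours whose libraries overlapped were EIF4EBP1 and LARP1 with either compound, EIF4EBP1 and DDIT4 with DMSO, MTOR and TSC2 in each group, and RICTOR and DEPTOR with CS2 and with DMSO. Overlaps were also found for TSC1 with SESN2 and RPTOR with RICTOR with CS2, for TSC2 with SESN2 with FB23-2, and along the 4 lowest genes with FB23-2.

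The genes most like each member in their profile over the 9 libraries were ranked among 9646 genes by the root mean square difference of log2 CPM after centring, as a description. LARP1 was closest to HUWE1, a ubiquitin ligase (0.03), to CS, citrate synthase (0.03), and to FTO (0.04), the enzyme the series names as the compounds' target. FTO averaged 39.8 ± 0.31 CPM with CS2, 58.3 ± 6.2 CPM with FB23-2 and 56.9 ± 1.6 CPM with DMSO (SD, n = 3 each). DEPTOR was closest to CAMK2D (0.06), EDEM3 (0.07) and USO1 (0.07). USO1, a tether of transport vesicles, averaged 66.3 ± 4.1 CPM with CS2, 144 ± 15 CPM with FB23-2 and 76.9 ± 4.1 CPM with DMSO. SESN2 was closest to PCK2, the mitochondrial enzyme of gluconeogenesis (0.19), to CLU, which encodes clusterin (0.21), and to DDIT3 (0.22). PCK2 averaged 133 ± 6.8 CPM with CS2, 341 ± 42 CPM with FB23-2 and 49.9 ± 3.8 CPM with DMSO (SD, n = 3 each). EIF4EBP1 was closest to SLC25A37 (0.09), KAZN (0.10) and TARS1, the threonyl-tRNA synthetase (0.10). DDIT4 had no gene closer than 0.26 (PMM1), followed by PHGDH (0.27), an enzyme of serine synthesis, and DCXR (0.28). For the rest the closest genes were NAT10 for MTOR (0.03), HMSD for RPTOR (0.08), YOD1 for RICTOR (0.07), NFASC for TSC1 (0.06) and ATPAF2 for TSC2 (0.09).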

How the data were processed

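Messenger RNA libraries were made from TRIzol-extracted total RNA of NCI-H69 with the Hieff NGS Ultima kit, as the labels' protocols state. The table the authors deposited holds raw read counts per gene. The submitters' processing notes name hg38. No source used here names the aligner, counter, annotation or strand setting. Columns were assigned by name, with FB23 read as FB23-2. Of 15 labelled samples, 6 of H82 were not analysed here.

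Counts were tested with edgeR 4.0.16 in R 4.3.3. The filterByExpr step used groups (minimum count 10 and total 15) and kept 99.9% to 99.92% of counts. TMM scaling was followed by 1 robust quasi-likelihood fit of all 9 libraries without covariates. A call is a Benjamini-Hochberg adjusted p below 0.05 among 19781 genes. SEs were taken from the log2 fold change and its F statistic, and log2 CPM had a prior count of 1. The biological coefficient of variation was 0.101. The fit was tested on simulated data.

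Coordinates and overlaps came from GENCODE 29 on GRCh38, which holds 58261 of 62754 IDs, and promoters from RefSeq. The members and gene lists were chosen with earlier results of these data known. Besides members, the text draws on up to 3 genes per list and comparison, ranked by change among called genes with separated groups and a mean of at least 5 CPM. Only part of these is printed, with their calls in other comparisons. A value for 3 counts covers counting error only. The alternatives were RLE factors, unscaled library size, either no low-count filter or a 1 CPM mean, DESeq2 1.42.0, limma 3.58.1 voom, a fit of 2 groups, a replicate block, omission of mitochondrial genes, a gene span correction (lowess, span 0.3) and omission of each library. No library repeated another, and p-values measure the spread between samples called biological replicates by the series.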

Additional observations from a re-analysis of the deposited data

How the results depend on the processing

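The 10 members in 3 comparisons give 30 results, each recomputed under 19 alternatives. SESN2, DEPTOR, EIF4EBP1 and RPTOR with FB23-2, SESN2 and LARP1 with CS2, and 6 of the 7 differences between the compounds kept their direction and call under all 19, the exception being RPTOR between the compounds. With the gene span correction 3 differences turned: MTOR with CS2 (0.21, adjusted p = 0.0187), DEPTOR with CS2 (0.0925, adjusted p = 0.542) and RPTOR between the compounds (-0.0694, adjusted p = 0.56). MTOR was then called between the compounds (-0.35, adjusted p = 0.000238), PRKAG2 turned with CS2 (0.23), and MAPKAP1 turned between the compounds (-0.18, adjusted p = 0.0495). With 1 library left out, LARP1 with FB23-2 ranged from -0.000698 (without FB23-2 replicate 2) to 0.0956, and TSC2 between the compounds from -0.141 to 0.18 (without CS2 replicate 1), with 0.0504 without FB23-2 replicate 2. The correction assumes that a trend with span is not itself the response, and the cause of these shifts was not tested. With 1 library left out, the members called ranged from 3 to 7 with CS2, from 5 to 6 with FB23-2, and stayed at 7 between the compounds; the genes called ranged from 8345 to 11024 with CS2, from 8795 to 10491 with FB23-2 and from 10965 to 11848 between the compounds.

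Deviations from the group mean were correlated between libraries with the same replicate number. The correlations were -0.031 to 0.0125 where 1 of the 2 was a DMSO library. Between CS2 and FB23-2 libraries they were 0.145, 0.104 and 0.042, against -0.12 to 0.0188 for different numbers. The labels do not say whether the numbers pair libraries, and the main fit does not pair them. With the replicate block 6, 6 and 7 members were called, and 10271, 10698 and 12136 genes, with DDIT4 called for FB23-2 (0.82, adjusted p = 0.0382) and, in the lists, 5 Rag, Ragulator and folliculin genes lower and 5 PI3K and AKT genes higher with FB23-2.

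EEF1G and DDIT4L were listed at 0 in every library, and INSR had 10 counts in all 9 libraries together. EEF1G serves every cell, and the listed 0 says nothing of its expression, since no source used here names the annotation or counter. The same holds for INSR.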
